A study of Mus musculus with 4 samples.

Results

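The genes described here encode the proteins of the cytosolic ribosome in myeloid cells of the mouse large intestine. A probe set belonged to the family when the platform's probe table gave it exactly 1 gene and that gene's symbol began with Rpl or Rps, leaving out the kinases whose symbols begin with Rps6k. This held for 101 of 22690 probe sets, which named 49 of 12393 genes. Of the 49 genes, 22 encode structural proteins of the large subunit and 20 of the small subunit, 6 are paralogs of such genes and 1 symbol, Rps15a-ps6, is that of a pseudogene. RNA came from 4 sorted populations of lamina propria cells, the connective tissue under the gut epithelium, of C57BL/6J mice, with 1 Affymetrix 3' array for each. CX3CR1high macrophages were positive for CD11c and CD11b and high for the fractalkine receptor CX3CR1. CX3CR1- cells shared the first pair of markers but lacked the receptor, and the labels also call them DC. CD11b+ cells were negative for CD11c, and the dendritic cells (DCs) were CD11c high and CD11b negative. Sample titles call the CD11b+ cells Mf, the abbreviation also used for the CX3CR1high macrophages, and the DCs CD103. The labels give no treatment, age or number of pooled animals.

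A ribosome has a small subunit, which reads the messenger RNA, and a large subunit, which joins the amino acids. Each structural protein is normally present once per ribosome, apart from the acidic stalk proteins, so cells make them in step. Their messenger RNAs are short and abundant, and they typically start with a C followed by an unbroken stretch of pyrimidines, the 5' terminal oligopyrimidine tract, through which the kinase mTOR controls their translation. Cells that grow or divide need more ribosomes than resting ones.

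The bases around the annotated starts of 9 genes are shown because such tracts are known from this family and because the genes differ in them. They run from 15 bases before to 15 bases after the start of the first RefSeq transcript listed (GRCm38.p6), and capitals mark the longest run of C or T that touches bases -5 to +6.
Rps6, chr4:86857353-86857382, minus strand: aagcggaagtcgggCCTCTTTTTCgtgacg
Rps18, chr17:33955651-33955680, minus strand: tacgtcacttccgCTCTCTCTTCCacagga
Rpl7a, chr2:26910792-26910821, plus strand: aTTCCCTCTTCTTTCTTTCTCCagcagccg
Rpl35, chr2:39005117-39005146, minus strand: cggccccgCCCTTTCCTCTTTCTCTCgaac
Rplp2, chr7:141447636-141447665, plus strand: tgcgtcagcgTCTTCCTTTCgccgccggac
Rps25, chr9:44407699-44407728, plus strand: tttttccgacaTCTTagcgaggctgctgtg
Rpl22, chr4:152325711-152325740, plus strand: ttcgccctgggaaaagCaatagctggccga
Rps27l, chr9:66946071-66946100, plus strand: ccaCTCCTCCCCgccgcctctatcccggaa
Rpsa, chr9:120127751-120127780, plus strand: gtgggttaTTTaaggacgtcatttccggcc
The run was 21 bases long in Rpl7a and 18 in Rpl35, against 3 in Rpsa and 1 in Rpl22. Of 42 member genes with a sequence in the table, 18 (42.9%) had a run of at least 8 bases at one of their starts, against 11.5% of 17492 protein-coding genes. Annotated starts can lie a few bases from the true ones, so a short run says only that these letters are not at this position.

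Motifs in the 300 bases around each listed start, from 250 before to 50 after, were counted on both strands. A gene counted when any of its starts had the letters. The letters CCGGAAG, the core that ETS family factors such as Gabpa recognise, were present in 21 of 42 member genes and in 12.9% of all protein-coding genes. The palindrome CTCGCGAG was present in 6 of 42 (14.3%) and in 1.41% of all. CCGCCAT, the core of YY1 sites, was found in 7 of 42 (16.7%) and 6.05% of all. The SP-type box GGGCGG (57.1% and 49.2%) and TATAAA (14.3% and 14.8%) were about as frequent in member genes as in all genes. A match is a string of letters and not a bound site. Examples of the 2 motifs with the largest excess are shown with the motif in capitals, 30 bases each.
Rpl38, CCGGAAG, chr11:114668548-114668577, plus strand: ggggttaaccgtCCGGAAGcggaagcctcg
Rpl37, CCGGAAG, chr15:5116578-5116607, plus strand: caccaagacccgCCGGAAGtagtttcctgg
Rps3a1, CCGGAAG, chr3:86142660-86142689, minus strand: agattcttaaagCCGGAAGggcgaaagagc
Rps28, CTCGCGAG, chr17:33824544-33824573, minus strand: ccgcgtgcggtCTCGCGAGagcgaaagtga
Rps19, CTCGCGAG, chr7:24884574-24884603, plus strand: cactccgaaatCTCGCGAGactcgacgccc
Rpl27a, CTCGCGAG, chr7:109519162-109519191, plus strand: gcgcctgctacCTCGCGAGacttcgtgagc

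Values are the authors' signals in linear intensity units, which they scaled to a trimmed mean of 500 on every array. Signals under 103, the pooled median of the 4 arrays without control probe sets, were raised to that floor before a ratio was taken, and no ratio is given where both sides lay under it. For each gene 1 probe set was used, the one with the highest mean log2 signal, preferring those whose name does not end in _x_at. Because each population has 1 array, nothing could be tested across replicates, and precision is limited by how few arrays there are. Where a gene had several probe sets, the SD between them of log2 ratios was 0.32 to 0.41 in the 3 pairs with the CX3CR1high macrophages and 0.31 to 0.52 in the other 3, a spread that includes no variation between mice or sorts. The 6 pairs share arrays, so their ratios are not independent. In bulk RNA, less RNA per cell and fewer cells of a type cannot be told apart.

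All 8 macrophage markers, such as Csf1r and Mertk, were highest in the CX3CR1high macrophages, and 5 of 6 DC markers were highest in the DCs. Macrophage markers summed to 132112 in the CX3CR1high macrophages, 57205 in the CX3CR1- cells, 73494 in the CD11b+ cells and 12211 in the DCs. In the CX3CR1- and CD11b+ cells all 8 also reached the floor. DC markers summed to 4104, 11659, 2883 and 28485 in the same order. Epithelial markers (6 genes) summed to 11903 in the CX3CR1high macrophages, 5581 in the CX3CR1- cells, 2130 in the CD11b+ cells and 3276 in the DCs, and fibroblast markers (5 genes) to 14626, 20219, 58692 and 4697 in that order. The floor of 103 was reached by 6, 5, 5 and 5 of the epithelial markers and by 5, 5, 5 and 4 of the fibroblast markers. The 3 measured B and plasma cell markers summed to 18589, 10464, 34389 and 10230, almost all of it from Jchain (18478, 10329, 34144 and 10117). Ms4a1 lay under the floor of 103 everywhere, and Cd79a reached it only in the CD11b+ cells (147). Granulocyte markers (4 genes) summed to 1112, 142, 7509 and 62.4, and the 3 measured markers of T and NK cells lay under the floor everywhere. The ratio of 3' over 5' signals of the Gapdh control (higher in degraded RNA) was 1.08, 3.40, 2.17 and 0.791 in that order. That of the Actb control was 1.68, 2.76, 3.18 and 1.11, with the CD11b+ and not the CX3CR1- array highest. The part of other cells and of RNA integrity in the ratios below was not tested.

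Ribosomal protein genes were among the brightest on every array. Of the 49 genes, 44 reached the floor in all 4 populations. The median signal of the 49 was 11447 in the CX3CR1high macrophages, 12201 in the CX3CR1- cells, 13631 in the CD11b+ cells and 20195 in the DCs, against medians of 155, 147, 159 and 123 over all genes. In the DCs 32 of the 100 brightest genes were ribosomal protein genes, against 16 in the CX3CR1high macrophages and 21 each in the CX3CR1- and CD11b+ cells. The 101 probe sets held 5.62% of the summed signal of the CX3CR1high array, 6.77% of the CX3CR1- array, 6.90% of the CD11b+ array and 8.06% of the DC array. By these measures the CX3CR1high macrophages were lowest and the DCs highest.

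**Figure D1:**
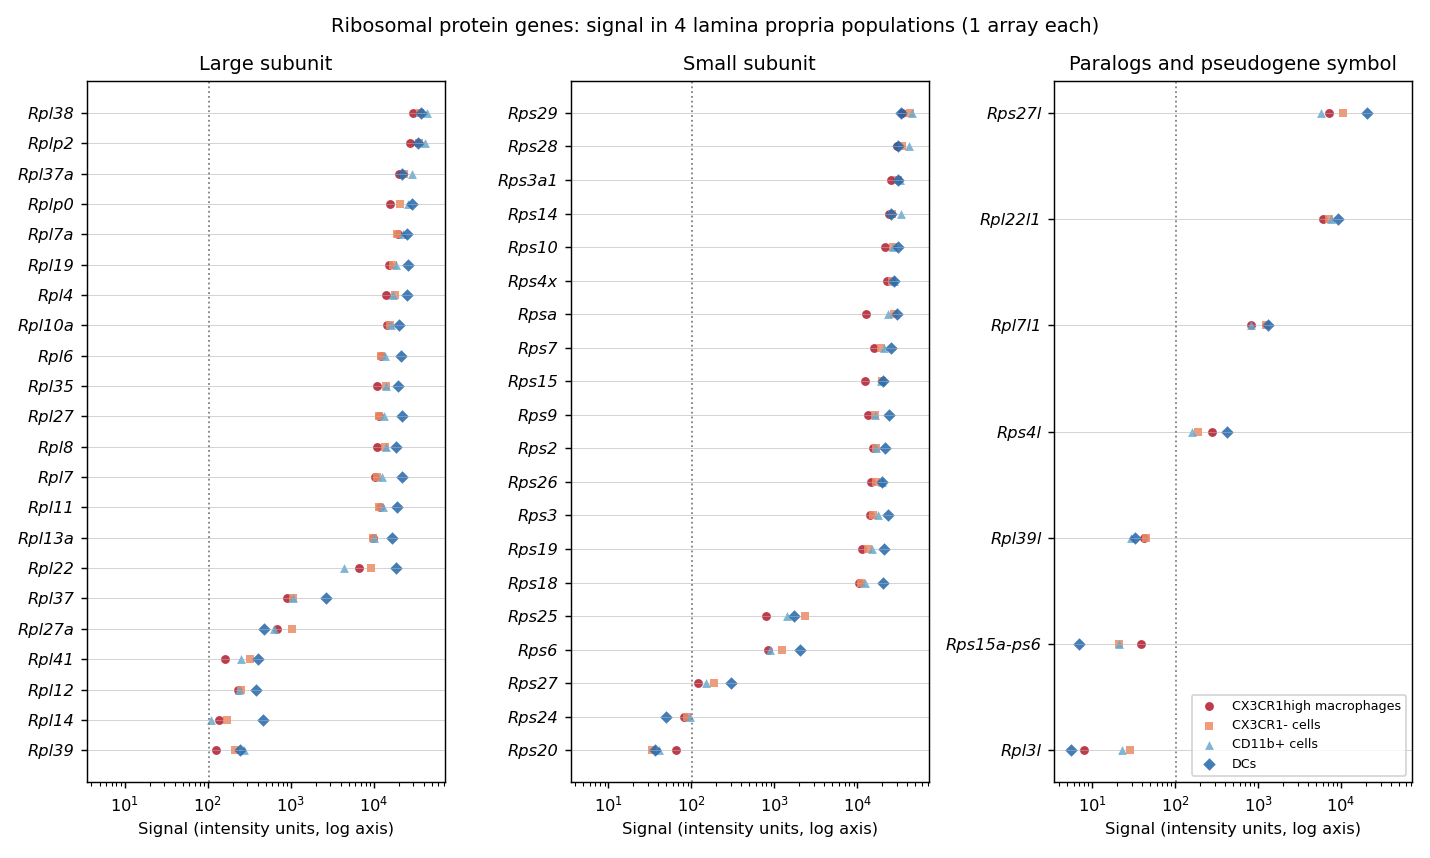
Signal of each ribosomal protein gene (intensity units, log axis) in the CX3CR1high macrophages, CX3CR1- cells, CD11b+ cells and DCs, 1 array each, by subunit, with the floor of 103 as a dotted line. Of 42 structural genes 29 lie above 10000 in every population, mostly with the DC point to the right, while Rps29, Rps28 and Rpl38 at the top have their highest point in the CD11b+ cells.

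The order of the populations was alike in most members. Among the 44 genes above the floor, the DCs had the highest signal for 34 (77.3%), against 32.4% of all genes. In such rankings, shares of all genes are of the 7847 that reached the floor in at least 1 array. The CX3CR1high macrophages had the lowest signal for 34 (77.3%), against 24.4% of all genes, and the highest for 0, against 25.9%. The 2 patterns met in 26 genes (59.1%), against 11.8% of all genes and 16.5% of the 10% of genes with the highest mean signal, a group that holds 33 of the members. Small subunit genes had their lowest signal in the CX3CR1high macrophages in 17 of 18 cases and large subunit genes in 15 of 22. The CD11b+ cells were highest for 8 genes (18.2%), against 23.4% of all genes. The CX3CR1- cells were highest for 2 (4.55%), Rpl27a and Rps25, against 18.3%. Both were read from dim probe sets. Bright ones naming several symbols had the CD11b+ cells highest for Rpl27a (27890) and the DCs for Rps25 (22244).

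The widest gap was that between the CX3CR1high macrophages and the DCs. The median log2 ratio was -0.75 over the 44 genes, a 1.68-fold difference, against 0.02 over all genes and -0.11 over the brightest 10%. At 1.5-fold or more, 30 genes (68.2%) were lower in the CX3CR1high macrophages, against 22.5% of all genes, and 0 were higher, against 26.2%. At 2-fold or more 10 genes (22.7%) were lower, against 10.2%, and 0 higher, against 17.4%. The median was -0.80 in the large subunit and -0.68 in the small subunit, so neither subunit carried the difference alone.

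Rpl14, a large subunit protein, had signals of 137 in the CX3CR1high macrophages, 171 in the CX3CR1- cells, 111 in the CD11b+ cells and 467 in the DCs. Its ratio of CX3CR1high macrophages over DCs was the lowest of the family, a 3.39-fold difference. Rpl37 stood at 903, 1065, 1057 and 2634 in the same order of populations, a 2.92-fold difference between CX3CR1high macrophages and DCs. In these probe sets the DCs stood above 3 lower values, but brighter Rpl37 probe sets that name another symbol too had 10772, 13416, 14352 and 12224 (1.13-fold), and 20920, 20274, 25993 and 27418 (1.31-fold). Rpl7, of the large subunit, had 10346, 10904, 12568 and 22197 (2.15-fold). Rps6, the small subunit protein that S6 kinases phosphorylate in answer to growth signals, had 835, 1245, 874 and 2051 (2.46-fold), and Rps27 120, 185, 151 and 302 (2.52-fold). The brightest probe set naming Rps6 and another symbol read 28599, 33859, 41005 and 30187, only 1.06-fold apart between CX3CR1high macrophages and DCs and highest in the CD11b+ cells.

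In the CX3CR1high macrophages Rpsa lay below each of the 3 other populations by 1.86-fold or more. Rpsa, a small subunit protein also known as the laminin receptor, had 12674 signal units in CX3CR1high macrophages, 27553 in the CX3CR1- cells, 23567 in the CD11b+ cells and 30246 in the DCs. The macrophage value differed from these 3 by 2.17-fold, 1.86-fold and 2.39-fold. Rps25, which is needed for initiation at some viral internal ribosome entry sites, stood at 793, 2345, 1413 and 1730, and was 2.96-fold, 1.78-fold and 2.18-fold lower in this dim probe set, the lowest ratio of the family over the CX3CR1- cells. A bright probe set naming Rps25 among 3 symbols had 13029, 15067, 13559 and 22244, with differences of 1.16-fold, 1.04-fold and 1.71-fold and the DCs highest. The large subunit stalk protein Rplp0, which anchors the acidic proteins that bind elongation factors, had 15927, 20890, 26231 and 28900, and the small subunit gene Rps15 12413, 19755, 19083 and 20321. In these genes too the macrophage value was the lowest of the 4.

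Against the CD11b+ cells the CX3CR1high macrophages were lower by less. The median log2 ratio was -0.30, against -0.02 over all genes, with 39 of 44 genes below 0. At 1.5-fold 7 genes (15.9%) were lower, against 14.2% of all genes, and 2 (4.55%) were higher, against 13.2%, so the share of lower calls was near that of all genes. At 2-fold 1 gene was lower, against 5.83%, and 0 higher, against 4.66%. Rpl39, which lines the exit tunnel of the large subunit, had the lowest ratio, with signals of 127 against 277 (2.18-fold), just above the floor. It was the 1 gene past 2-fold, and a bright probe set naming Rpl39 and another symbol gave 29608 against 40785 (1.38-fold). The highest were Rps4l (275 against 161, 1.71-fold) and Rpl22 (6626 against 4378, 1.51-fold). Small subunit genes were below 0 in 18 of 18 cases, with a median of -0.37, and large subunit genes in 19 of 22, with a median of -0.25.

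In the third pair, the CX3CR1high macrophages over the CX3CR1- cells, the genes had a median log2 ratio of -0.26, against 0.02 over all genes, with 39 of 44 genes below 0. At 1.5-fold 8 genes (18.2%) were lower, against 15.9% of all genes, and 0 were higher, against 19.2%. At 2-fold 3 (6.82%) were lower, against 6.54%, and 0 higher, against 8.56%. After Rps25 and Rpsa, Rpl41, which encodes one of the shortest known proteins, had the lowest ratio (162 against 326, 2.01-fold). That Rpl41 probe set was dim, as was another at 152 against 376 (2.47-fold). Bright ones gave 24762 against 28738 (1.16-fold) and 14075 against 19948 (1.42-fold). Of the 3 genes past 2-fold, only Rpsa was read from a bright probe set. Rps4l (275 against 190) was the highest, and Rpl11 (12054 against 11583) and Rpl7a (19900 against 19077) were near equal.

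**Figure D2:**
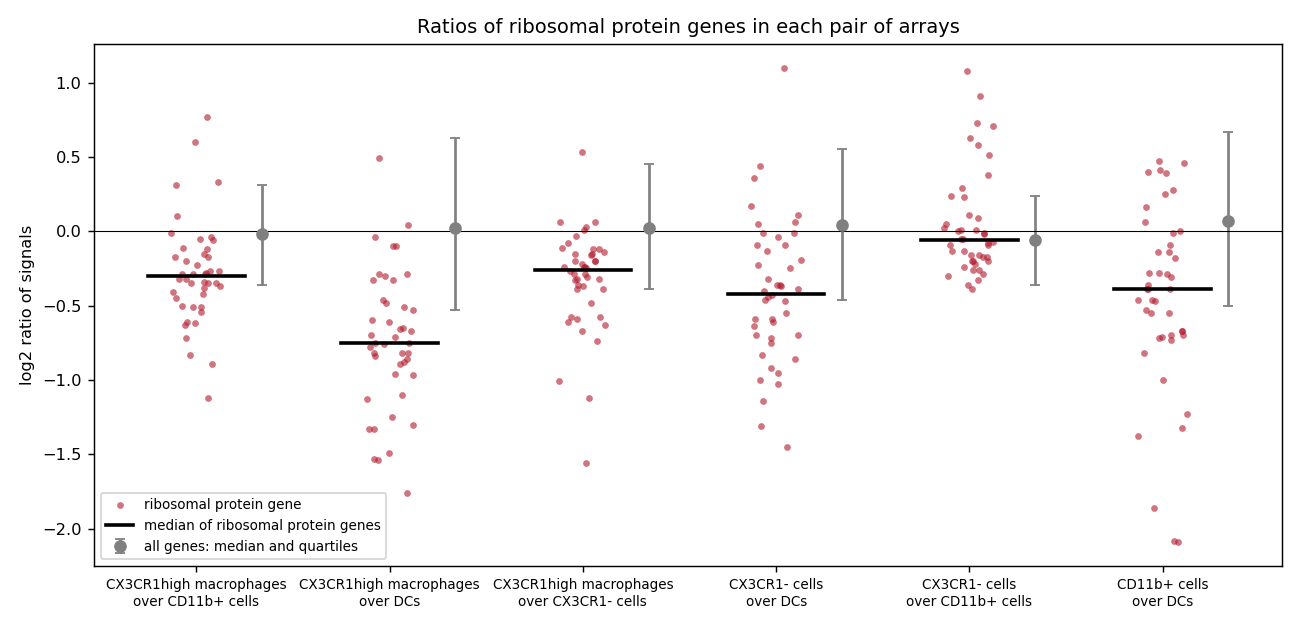
Log2 ratio of each ribosomal protein gene (red points, 44 genes) in the 6 pairs of arrays, with their median (black line) beside the median and quartiles of all genes (grey). The medians lie at -0.75, -0.42 and -0.39 in the 3 pairs with the DCs below the line, at -0.30 and -0.26 for the CX3CR1high macrophages over the CD11b+ and CX3CR1- cells, and at -0.06 for the CX3CR1- cells over the CD11b+ cells.

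The DCs also stood above the other populations. In the CX3CR1- cells over the DCs the median log2 ratio was -0.42, against 0.04 over all genes. Here 17 genes (38.6%) were at least 1.5-fold lower in the CX3CR1- cells, against 20.3% of all genes, and 1 (2.27%) was higher, against 24.1%. At 2-fold the counts were 5 (11.4%) lower, against 8.7%, and 1 higher, against 13.7%. In the CD11b+ cells over the DCs the median was -0.39, against 0.07, with 15 genes (34.1%) lower, against 21.7% of all genes, and 0 higher, against 27.8%. At 2-fold 6 (13.6%) were lower, against 10.4%, and 0 higher, against 17.0%. The exception in the first pair was Rpl27a, which stood 2.15-fold higher in the CX3CR1- cells (1034 against 481).

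The CX3CR1- cells and CD11b+ cells were the most alike. Their median log2 ratio was -0.06, the same as over all genes, and 18 genes lay above 0 and 26 below. At 1.5-fold 5 genes (11.4%) were higher in the CX3CR1- cells, against 9.45% of all genes, and 0 were lower, against 13.7%. At 2-fold 1 was higher, against 3.55%, and 0 lower, against 5.19%. Led by Rpl22 (9273 against 4378, 2.12-fold), Rps27l (10666 against 5692, 1.87-fold) and Rps25 (2345 against 1413, 1.66-fold), the higher genes were few. At the other end, Rpl39 (212 against 277), Rps14 (26435 against 33923) and Rplp0 (20890 against 26231) differed by at most 1.31-fold.

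The CD11b+ cells had the lowest signal for 4 of the 44 genes (9.09%), against 17.6% of all genes. These were Rpl22, Rpl14 and the paralogs Rps27l and Rps4l. Rpl22, a large subunit protein that T cell development in mice depends on, had signals of 6626 in the CX3CR1high macrophages, 9273 in the CX3CR1- cells, 4378 in the CD11b+ cells and 18584 in the DCs, a 4.24-fold difference between the CD11b+ cells and the DCs. Rps27l, a paralog of Rps27 and a known target of p53, had 7152, 10666, 5692 and 20619 in the same order (3.62-fold). Its other 2 probe sets gave 4150, 6183, 2932 and 12314, and 4728, 8060, 3662 and 14493, with the same order of the 4 populations. A second Rpl22 probe set was dimmer, at 408, 492, 415 and 640, and put the CD11b+ cells 1.54-fold below the DCs. In it the CX3CR1high macrophages and not the CD11b+ cells were lowest. Mdm2, the p53 inhibitor that free ribosomal proteins such as Rpl11 bind, ran the other way, with 2772, 1790, 3029 and 808. For Rpl14 the CD11b+ signal of 111 lay near the floor. Among brighter probe sets naming Rpl14 and another symbol, the dimmest (4130, 5633, 3631 and 11684) also had the CD11b+ cells lowest. The others, such as that at 13861, 24738, 17231 and 25402, had the CX3CR1high macrophages lowest.

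Of the other paralogs, Rpl22l1 followed the structural genes, with 6000 in the CX3CR1high macrophages, 7071 in the CX3CR1- cells, 7475 in the CD11b+ cells and 9064 in the DCs. Unlike the brighter Rpl22 probe set, it had no dip in the CD11b+ cells. Rpl7l1, which is related to Rpl7, had 825, 1241, 829 and 1318, and Rps4l 275, 190, 161 and 420. Rpl3l, known from heart and skeletal muscle, Rpl39l, known from testis, and Rps15a-ps6 stayed under the floor in all 4 populations, with highest signals of 28.4, 45.0 and 38.6.

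The ratios depended on how bright a probe set was. Among the 17 member probe sets above the floor with a mean signal under 5000, the median log2 ratio of CX3CR1high macrophages over DCs was -0.96. It was -0.82 in the 42 with a mean of 5000 to 20000 and -0.29 in the 26 above 20000. For the CD11b+ cells over the DCs the 3 medians were -0.70, -0.47 and 0.12. Across the 68 member probe sets with a mean of 5000 or more, which share arrays and whose probes may overlap, Spearman's rho of the ratio with mean signal was 0.78 for the first pair and 0.84 for the second. Over 524 other probe sets this bright it was 0.15 and 0.20. Among 54 other probe sets above 20000 the medians were 0.31 and 0.53, so members lay below other probe sets of that brightness in these pairs. The highest signals of the arrays were 44238 in the CX3CR1high macrophages, 45013 in the CX3CR1- cells, 66335 in the CD11b+ cells and 38968 in the DCs, and the part of an upper limit of the scale was not tested.

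**Figure D3:**
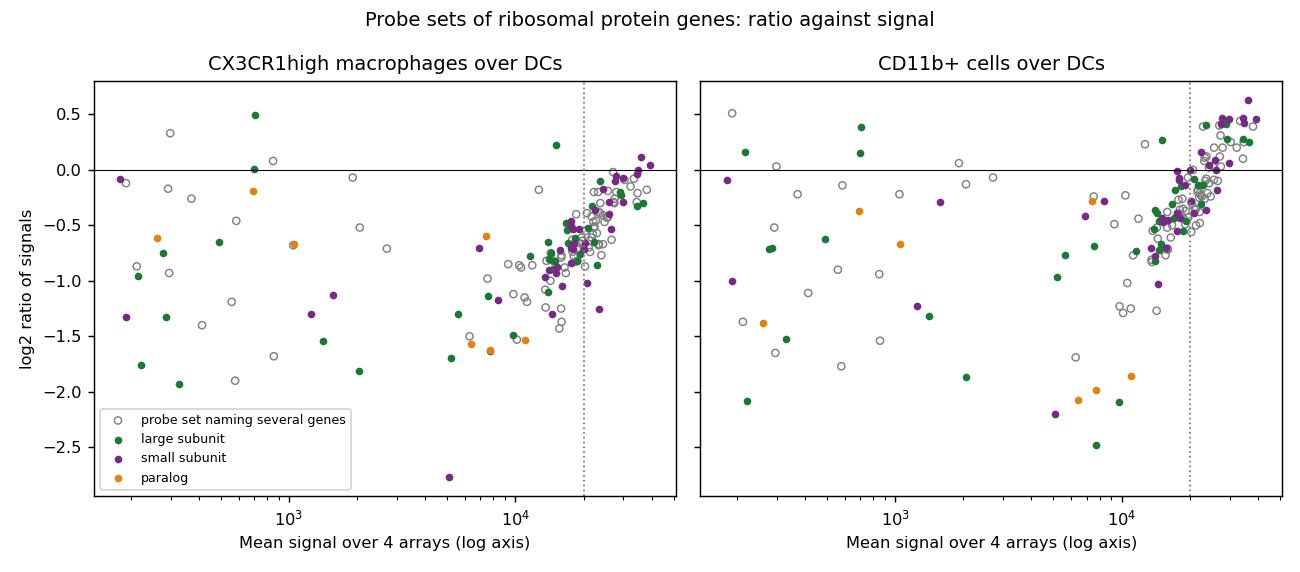
Log2 ratio against mean signal (log axis) for ribosomal protein probe sets above the floor in all 4 arrays, for the CX3CR1high macrophages over the DCs and the CD11b+ cells over the DCs. Filled points name 1 gene and open ones several; ratios climb with signal from about 5000 on, and above the dotted line at 20000 the member medians are -0.29 and 0.12.

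The brightest members were those for which the DCs did not lead. Rps29, a zinc-binding small subunit protein with the highest mean signal of the family, had 34455 in the CX3CR1high macrophages, 43086 in the CX3CR1- cells, 45960 in the CD11b+ cells and 33461 in the DCs. Rps28 had 29921, 34413, 42358 and 30684, Rpl38 29859, 36407, 43554 and 36750, and the stalk protein gene Rplp2 27027, 35386, 41203 and 33928. In all 4 genes the CD11b+ cells had the highest signal. Rps28 was 1.38-fold and Rps29 1.37-fold higher in the CD11b+ cells than in the DCs, and Rps14 1.33-fold (33923 against 25553). In the same bright range, Rps10 (21285, 26843, 27123 and 30645) and Rpsa kept the DCs highest.

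Probe sets of the same gene did not always give the same ratio. Of 19 genes with at least 2 probe sets above the floor, 17 had the same sign in all of them for the CX3CR1high macrophages over the DCs, and 5 spanned more than 2-fold. One Rps10 probe set read 1853 in CX3CR1high macrophages, 3162 in the CX3CR1- cells, 2741 in the CD11b+ cells and 12619 in the DCs, a 6.81-fold difference between the first and last, while the other 4 above the floor gave 1.44-fold to 1.91-fold. Rpl7 ranged from 1.46-fold to 3.10-fold, Rpl13a from 1.57-fold to 3.51-fold and Rps9 from 1.06-fold to 2.25-fold, all lower in the CX3CR1high macrophages. Rpl41 did not keep its sign, with 3.81-fold lower in a dim probe set (152 against 581 in the DCs) and 1.16-fold higher in a brighter one (14075 against 12086), while the brightest was 1.17-fold lower. For Rpl27 over the CX3CR1- cells, 1 of 3 probe sets was 1.02-fold higher and the others 2.02-fold and 1.73-fold lower.

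For some genes the probe set read was dim while another was bright. Rps20 and Rps24 lay under the floor by the rule used, yet their brightest _x_at probe sets reached 22173, 24785, 25723 and 25014 for Rps20 and 21332, 24430, 29959 and 28215 for Rps24 in the CX3CR1high macrophages, CX3CR1- cells, CD11b+ cells and DCs. Rpl27a, at 677, 1034, 632 and 481, also appears in a probe set naming 5 symbols, at 20199, 25841, 27890 and 27262, in which the CX3CR1high macrophages were below the DCs and not above them. For Rps27 a probe set that also names Rps27rt gave 15146, 24481, 29444 and 22528, with the CD11b+ cells and not the DCs highest. Of 5 probe sets naming Rpl14 and another symbol, one had 4130, 5633, 3631 and 11684, with the DCs alone high, and another 13861, 24738, 17231 and 25402, with the CX3CR1- cells close to the DCs. The direction of Rpl27a rests on which probe set is read.

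Genes that act with the ribosome were read from lists. Mitochondrial ribosomal proteins, which build the separate ribosome of mitochondria, had a median log2 ratio of -0.62 in the CX3CR1high macrophages over the DCs, with 42 of 74 genes at least 1.5-fold lower, against 22.5% of all genes, and 0 higher, against 26.2%. Over the CD11b+ and the CX3CR1- cells, however, their medians were 0.13 and 0.14, whereas those of the cytosolic proteins were -0.30 and -0.26. The DCs were highest for 62 of the 74 (83.8%), while the CX3CR1high macrophages were lowest for 16 (21.6%), close to the 24.4% of all genes. Mrpl42 had 1014 in CX3CR1high macrophages, 707 in the CX3CR1- cells, 593 in the CD11b+ cells and 3711 in the DCs, and Mrps14 had 1312, 1275, 1246 and 3700. In both genes the other 3 populations lay well below the DCs, and the CX3CR1high macrophages were not the lowest.

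Ribosome biogenesis genes had 13 of 33 members at least 1.5-fold lower and 1 higher in CX3CR1high macrophages, again against the DCs (median -0.42). These and the next counts stand beside 22.5% of all genes lower and 26.2% higher in this pair. Among them were Gar1, a protein of the RNPs that pseudouridylate ribosomal RNA (341 against 1041), the rRNA methyltransferase fibrillarin, Fbl (2836 against 6986), and Polr1a, the largest subunit of RNA polymerase I (under the floor at 90.7, against 269). Rrp9, a part of the U3 RNP, went the other way (162 against 72.8, the latter under the floor). Initiation factors had 11 of 26 lower and 2 higher (median -0.52), led by the eIF3 subunits Eif3k (2328 against 6108) and Eif3m (698 against 1609). Of 7 elongation factor and related genes, 4 were lower and 0 higher (median -0.65), with Eef1e1 at 712 against 1513. Eef1a1, which brings aminoacyl-tRNA to the ribosome and like the ribosomal proteins starts with a pyrimidine tract, had 32972 and 33880, among the brightest signals of both arrays.

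Among regulators, 6 of the 10 with a ratio were at least 1.5-fold lower in CX3CR1high macrophages than the DC level and 2 higher, beside 22.5% and 26.2% of all genes. Mtor stood at 433 against 794, Myc, which drives ribosome production, at 518 against 794, and Yy1 at 1455 against 2231. The higher ones were Mdm2 and Max, the partner of Myc (680 against 315). Gabpa (560 against 750) and Larp1, which binds the pyrimidine tract (1008 against 1210), differed by less than 1.5-fold. Against the CX3CR1- cells, 4 of 26 initiation factors were at least 1.5-fold higher in the CX3CR1high macrophages and 4 lower, beside 19.2% and 15.9% of all genes. At 2-fold 2 were higher (7.69%, against 8.56%). These were the cap-binding factor Eif4e (3196 against 1442, 2.22-fold) and its inhibitor Eif4ebp1 (658 against 263, 2.50-fold). Eif4ebp1 stood at 633 in the CD11b+ cells and 581 in the DCs, so its CX3CR1- value was the one apart.

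**Figure D4:**
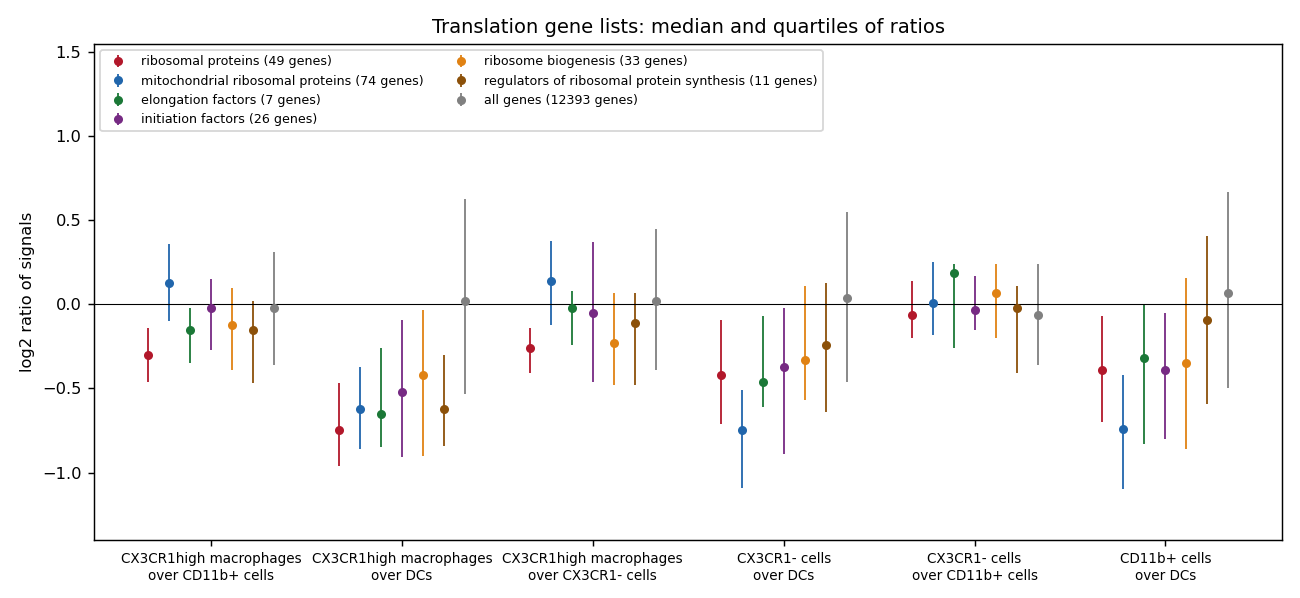
Median log2 ratio with quartiles (bars) of ribosomal protein genes, 5 other translation lists and all genes in the 6 pairs, over the genes with a ratio. For the CX3CR1high macrophages over the DCs all 6 lists have medians between -0.75 and -0.42 against 0.02 for all genes, and over the CD11b+ cells the cytosolic list is at -0.30 and the mitochondrial list at 0.13.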

How the data were processed

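The authors deposited a signal intensity on a linear scale for each probe set, computed with MAS5 per the submitters' processing notes (version not given in the sources used here). The trimmed mean, with 2% cut from each end, was 500 on all 4 arrays. Of 20380 probe sets naming 1 gene, 1 per gene was read (12393 genes), and all 49 member genes were found by Entrez number in the RefSeq table of GRCm38.p6, with 0 changed symbols. Calls were set at 1.5-fold and 2-fold after the floor of 103, and lists were described by counts and medians beside all genes. Shares of all genes called are of those with a ratio in the pair, from 7266 to 7512 genes. Genes were named by rule: the 3 highest and 3 lowest ratios per pair, those past 2-fold, the brightest and dimmest, paralogs, and genes whose probe sets differed over 2-fold. Other genes are list members past 2-fold, at most 4 per list and pair, and Rps15, Rps18, Rps19, Rps20, Rps3a1, Rpl35, Rpl10, Rpl12, Rps12, Rrp9, Mtor, Myc, Yy1, Gabpa, Larp1 and Eef1a1 were added after their values were seen, as were the motifs. The members and lists were chosen with earlier results of these data known. The ratio procedure was tested on simulated data. Alternatives were 10 planned and 3 added after seeing the data. Python 3.11.15, numpy 2.4.6, pandas 2.3.3 and scipy 1.17.1 were used.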

Additional observations from a re-analysis of the deposited data

How the results depend on the processing

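Each median ratio of the members was computed under 13 alternatives. The sign held in all 13 for 5 of the 6 pairs, with medians of -0.35 to -0.14 for the CX3CR1high macrophages over the CD11b+ cells, -1.06 to -0.61 over the DCs and -0.58 to -0.22 over the CX3CR1- cells, and of -0.64 to -0.36 for the CX3CR1- cells and -0.70 to -0.30 for the CD11b+ cells over the DCs. For the CX3CR1- cells over the CD11b+ cells (-0.06) the median ran from -0.13 to 0.29, the last without _s_at, _x_at and _a_at probe sets, which leaves 17 genes. With equal array medians the median of all genes moved to -0.27 for the CX3CR1high macrophages over the DCs and that of the members to -1.06. Relative to all genes this was -0.79, against -0.77 on the deposited scale and -0.52 with quantile normalization. The share of lower calls among all genes called at 1.5-fold was then 63.7%, against 46.2%, and it was 60.6% and 61.8%, against 45.8% and 43.8%, for the CX3CR1- cells and the CD11b+ cells over the DCs. It was 47.8%, against 59.2%, for the CX3CR1- cells over the CD11b+ cells. Counts of members at least 1.5-fold lower than in the DCs were 24 to 39 under these scalings for the CX3CR1high macrophages (30), 15 to 25 for the CX3CR1- cells (17) and 15 to 29 for the CD11b+ cells (15). For the CX3CR1high macrophages over the CD11b+ cells the count of 7 was 4 with quantile normalization. No paired analysis was possible because each population has 1 array. With 1 array each, no difference between mice, sorts or hybridisations can be estimated.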

Other observations

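A further 102 probe sets name a ribosomal protein gene together with other symbols, and 29 ribosomal protein genes or paralogs are named only there. Of the 96 above the floor in at least 1 array, the CX3CR1high macrophages were lowest in 74, against 24.4% of all genes. The DCs were highest in 65, against 32.4%. The CD11b+ cells were highest in 21, near the 23.4% of all genes. The median log2 ratios of these probe sets were -0.64 for the CX3CR1high macrophages over the DCs, -0.34 with the CD11b+ cells and -0.25 with the CX3CR1- cells as the denominator. In the first of these pairs 53 fell short of the DC signal by 1.5-fold or more, against 22.5% of all genes. In the same pair 0 exceeded it by as much, against 26.2%. Spearman's rho of ratio with mean signal across the 75 with a mean of 5000 or more was 0.83 in that pair and 0.82 for the CD11b+ cells over the DCs. Rpl12 had 7992 in the CX3CR1high macrophages, 6390 in the CX3CR1- cells, 7400 in the CD11b+ cells and 17400 in the DCs. Rps12 had 6447, 7927, 7634 and 18618 in its dimmest probe set (2.89-fold between the first and last). Brighter Rps12 probe sets had 15281, 18345, 17821 and 24945 (1.63-fold), and 17313, 26407, 21064 and 24636 (1.42-fold). In the last of these the CX3CR1- cells and not the DCs were highest. Rpl10 differed from most, with 23335, 15622, 23158 and 26796 in one probe set and 24762, 25083, 33084 and 25104 in another, so that its low value in the CX3CR1- cells was seen in only 1 of the 2.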
